A study of Danio rerio with 8 samples.

Results

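The chemokine system of the zebrafish heart was followed through 78 genes among the 31953 in the deposited count table. Members were chosen by name alone, as every gene whose symbol in the authors' RPM table, which holds reads scaled to the library total, begins with ccl, ccr, cxcl, cxcr or ackr and a digit, or with xcr1, joined to the counts by Ensembl gene ID. They comprised 52 ligands, of which 37 were CC and 15 CXC chemokines, and 26 receptors, of which 11 were CC, 8 CXC, 3 XC and 4 atypical receptors. Chemokines are small secreted proteins that direct the movement of cells, and the CC, CXC and XC classes are named for the spacing of the cysteines near their N terminus. Their receptors span the membrane as G protein-coupled receptors, whereas atypical receptors bind chemokines without signalling through G proteins and can remove them. In an injured heart, chemokines are best known for calling in neutrophils and macrophages, and the Cxcl12 axis also takes part in building coronary vessels.

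The 8 bulk RNA sequencing libraries form 4 groups of 2. Control adults were treated with the vehicle, 0.1% dimethyl sulfoxide, and are labelled as uninjured and 0 days post injury (dpi); another label places hearts of day 0 before the drug. The 3 dpi and 7 dpi adults received 5 mM metronidazole in 0.1% dimethyl sulfoxide for 48 hours, which ablates ventricular cardiomyocytes that carry a bacterial nitroreductase. The enzyme comes from the vmhc:mCherry-NTR transgene, driven by the promoter of the ventricular myosin gene vmhc. Young hearts came from untreated larvae of 72 hours post fertilization, or 3 days, and were pooled at about 500 hearts a library. Adults were about 6 months old, with 4 to 6 hearts pooled in each library. The growth protocol lists wild-type AB fish, the vmhc:mCherry-NTR line and heat-shock lines for Wnt8 and Dkk1 without tying a line to a library, and no adult group received metronidazole without ablation. Nothing in the labels says that the pools of a group came from separate clutches or experiments, so p-values measure the spread between these pools, which may be technical.

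Total counts ranged from 10868019 to 26628897 a library. Control and 3 dpi libraries share a sequencing run name in the labels, while 7 dpi and young libraries carry different names. A protocol in the labels states that the libraries went on the sequencer together, which conflicts with these names. If the names hold, the run and the condition cannot be told apart for those groups. The 7 dpi libraries held reads of 18744 and 17785 genes, where the others had between 20660 and 23312. They gave 24.7% and 28.2% of their counts to mitochondrial genes, against 7.14% to 15.3% elsewhere. Levels below are CPM, that is counts scaled to library size, here with the trimmed mean of M values (TMM), listed as replicate 1 and then replicate 2. Scaling by library totals instead moved the median log2 fold change of all genes from 0.00 to 0.44 at 3 dpi, from -0.13 to -1.37 at 7 dpi, from 0.14 to 0.75 in young hearts and from -0.21 to -1.89 between 7 and 3 dpi, so directions at 7 dpi are relative to that choice. The summed level of 7 cardiomyocyte markers was 48654 and 61052 CPM in control pools and 13677 and 24948 in 3 dpi pools. It was 155055 and 117581 in 7 dpi pools and 3561 and 3448 in young pools. Young pools thus lay far below every adult pool. These sums use TMM scaling and were not made under library totals, so the height of the 7 dpi sums is relative to that choice. In young hearts 6 of the 7 markers fell and 1 rose against control, with a median log2 fold change of -3.34. The share of heart tissue in the young pools was not tested. In bulk hearts, fewer cells of a type and less RNA per cell cannot be told apart. The 3 dpi replicates stood apart from each other: the 26 receptor genes summed to 494 CPM in replicate 1 and 232 in replicate 2, beside 229 and 242 in control.

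Chemokine genes were called more often upward than downward at 3 dpi, and receptors were called in the downward direction alone at 7 dpi. Of the 78 members, 56 passed the filter on low counts and were tested. Against control, 11 rose and 2 fell at 3 dpi, where 9.05% of all genes tested rose, 6.55% fell and 15.6% were called in either direction. At 7 dpi 3 rose and 13 fell, where 18.7% of all genes rose, 20% fell and 38.7% were called. In young hearts 12 rose and 29 fell, where 32.6% of all genes rose, 27.6% fell and 60.2% were called. From 3 to 7 dpi 5 rose and 24 fell, where 22.8% of all genes rose, 28.1% fell and 50.9% were called. The libraries of the compared groups did not overlap for 25 members that were higher and 7 that were lower at 3 dpi (29.3%, 27.3% and together 56.7% of all genes), and for 11 and 20 at 7 dpi (31%, 37.3% and together 68.3%). In young hearts these were 17 and 33 (45.3%, 38.4% and together 83.7%), and from 3 to 7 dpi 8 and 30 (32.1%, 41% and together 73.1%). Calls are edgeR quasi-likelihood F tests with Benjamini-Hochberg adjustment over all 19330 genes tested at a threshold of 0.05, and the 3 comparisons with control share the same control libraries. Under library totals the split was 14 rising and 1 falling at 3 dpi and 0 against 29 at 7 dpi. It was 18 against 22 in young hearts and 1 against 40 from 3 to 7 dpi. At 3 dpi it was 11 against 4 with upper-quartile scaling, where all genes split into 1577 rising and 1442 falling. With DESeq2 in place of edgeR it was 11 against 5 at 3 dpi, where all genes split into 2146 rising and 1636 falling. All genes split under library totals into 3518 rising and 537 falling at 3 dpi, 729 against 11041 at 7 dpi, 8640 against 3389 in young hearts, and 864 against 13072 from 3 to 7 dpi.

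The counts of ligands and receptors are given apart. At 3 dpi 7 of 36 tested ligands rose and 2 fell, and 4 of 20 tested receptors rose and 0 fell. At 7 dpi 3 ligands rose and 6 fell, whereas 0 receptors rose and 7 fell. In young hearts 9 ligands rose and 17 fell, and 3 receptors rose and 12 fell. Between 3 and 7 dpi 5 ligands rose and 9 fell, whereas 0 receptors rose and 15 fell. In either direction, 25% of ligands and 20% of receptors were called at 3 dpi, beside 15.6% of all genes. At 7 dpi these shares were 25% and 35%, both below the 38.7% of all genes. They were 72.2% and 75% in young hearts, beside 60.2%, and 38.9% and 75% from 3 to 7 dpi, beside 50.9%. The median log2 fold change of tested receptors was 0.66 at 3 dpi, -1.09 at 7 dpi, -2.00 in young hearts and -2.93 from 3 to 7 dpi; that of ligands was 0.76, 0.02, -0.92 and -0.87. Medians were also taken with genes at 0 counts in a group set to their bound, a floor of 3 counts over the group. Genes with 3 counts or fewer in both groups were left out of these. For a gene just above the floor, the bound can have the opposite sign to its fitted value. The receptor medians then became 0.57, -1.01, -2.00 and -2.83 and the ligand medians 0.62, 0.15, -1.03 and -0.56. Over all genes tested, the medians without such bounds were 0.00, -0.13, 0.14 and -0.21. The difference between ligands and receptors was not itself tested.

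**Figure D1:**
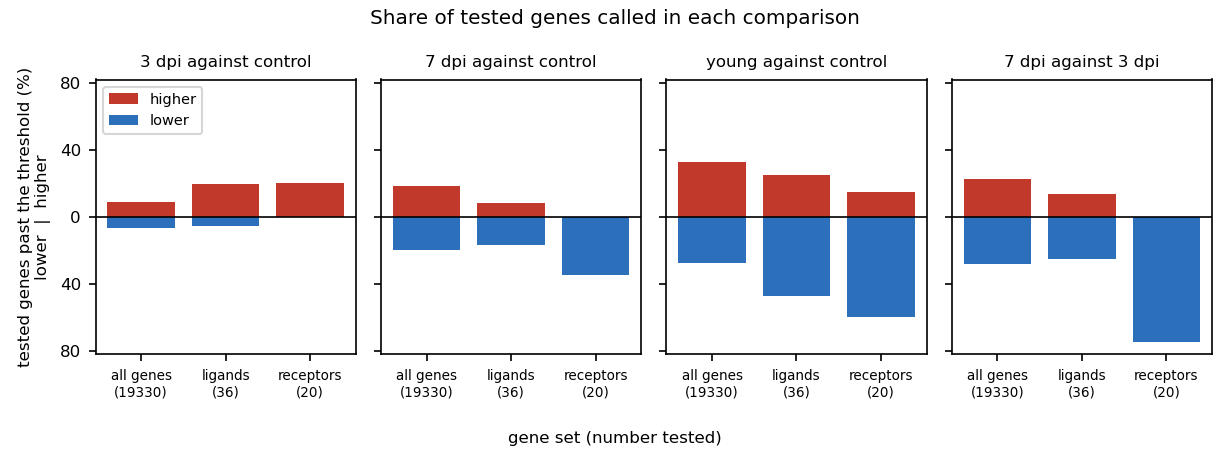
Percentage of tested genes that rose (red, upward) or fell (blue, downward) in each of the 4 comparisons, for all 19330 genes, the 36 tested ligands and the 20 tested receptors. Receptor bars point downward alone at 7 dpi against control and at 7 dpi against 3 dpi. There 35% and 75% of the receptors fell, beside 20% and 28.1% of all genes. Called in either direction were 38.7% and 50.9% of all genes.

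The 3 dpi calls leaned on single libraries, as did those over all genes tested, whose range is given in the last section. The share of calls over all genes that held without any 1 library is not given, so the held counts below describe the members alone. The 13 called members became 7 without control replicate 1, 5 without control replicate 2, 4 without 3 dpi replicate 1 and 20 without 3 dpi replicate 2. Of the 13 calls, 4 held in every such fit: the rises of ccl34a.4, ccr12b.2 and cxcl18b and the fall of ccl33.3. At 7 dpi the 16 calls became 8 without control replicate 1, 8 without control replicate 2, 9 without 7 dpi replicate 1 and 9 without 7 dpi replicate 2, and 4 held throughout, namely the rise of cxcl20 and the falls of ccr12a, ackr4a and cxcr3.1 (ENSDARG00000007358). Of the 41 calls in young hearts 31 held in every fit, and of the 29 from 3 to 7 dpi 15 did; that last count became 16 without 3 dpi replicate 1.

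**Figure D2:**
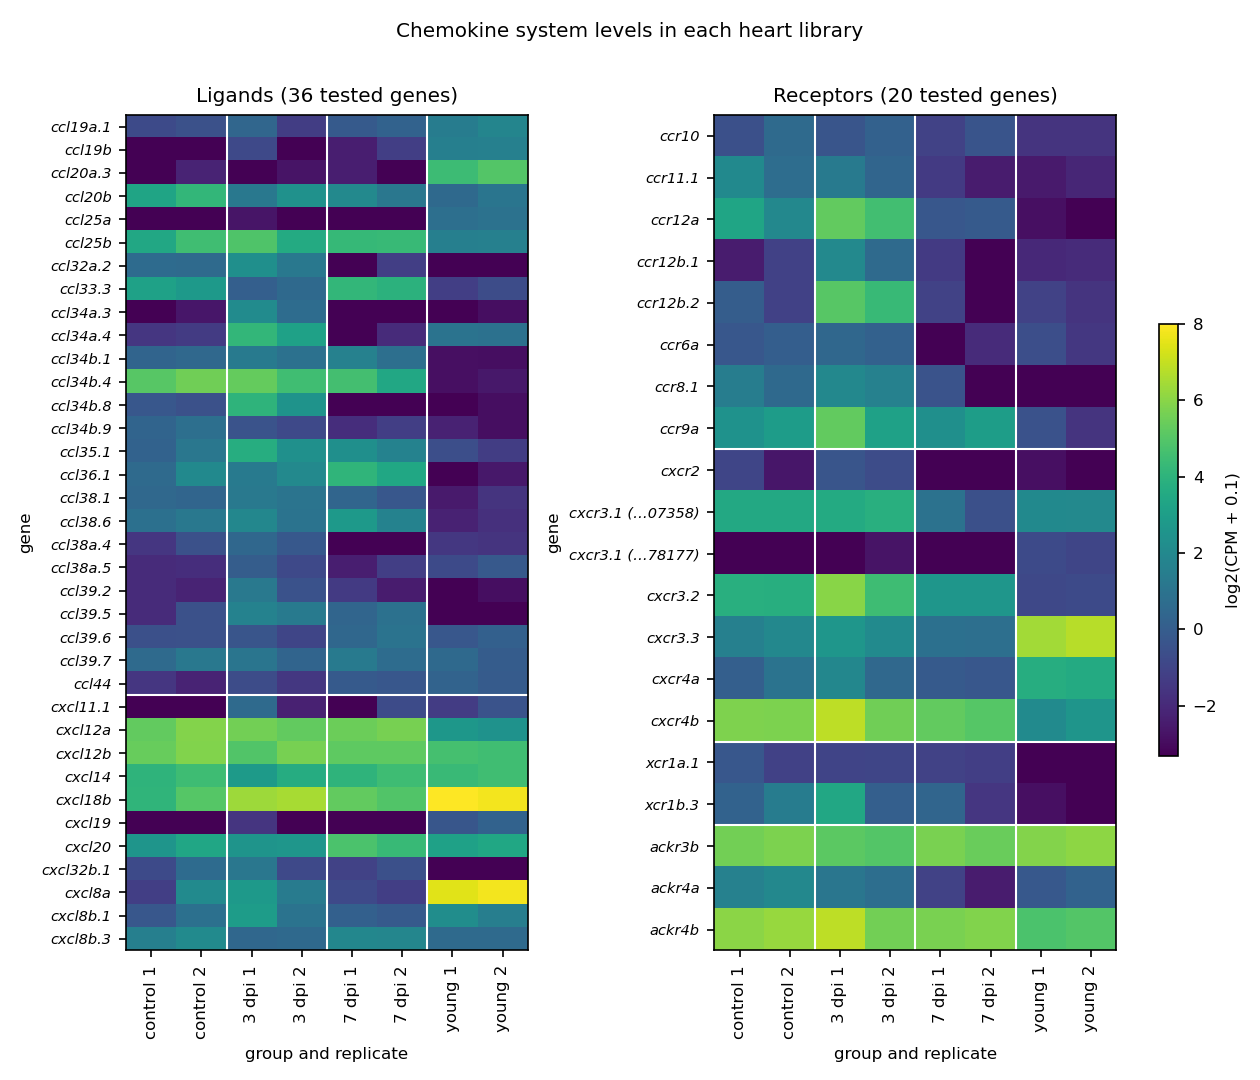
Levels of the 56 tested members in each library as log2(CPM + 0.1), with ligands on the left (CC above the white line, CXC below) and receptors on the right (CC, CXC, XC and atypical from top to bottom); colours show the level, not a difference, and cannot be compared between genes because CPM are not divided by gene length. The young columns are bright for cxcl8a, cxcl18b and cxcr3.3 and dark for most CC genes, and in the rows of ccr12a, ccr12b.2 and ccl34a.4 the 3 dpi columns are brighter than the other columns.

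Among CXC ligands, the neutrophil attractants cxcl8a and cxcl18b were highest in young hearts, and cxcl18b also rose at 3 dpi. Cxcl18b is a fish chemokine that acts on neutrophils through Cxcr2. Its level was 16.7 and 32.6 CPM in control pools, 80.4 and 91.1 in 3 dpi pools, 38.4 and 29.9 in 7 dpi pools, 273 and 221 in young pools. Both 3 dpi libraries lay above all control and 7 dpi libraries, and both young libraries lay higher still. The rise at 3 dpi had log2 fold change 1.79 ± 0.31 (SE), adjusted p = 0.00449. It held without any 1 of the 8 libraries, at log2 fold changes between 1.35 and 2.36. In young hearts the gene rose with a log2 fold change of 3.32 ± 0.32 (adjusted p = 1.41e-05) on the log2 scale. This rise held without any 1 of the 8 libraries, at log2 fold changes between 2.84 and 3.88. Between 3 and 7 dpi it fell, with log2 fold change -1.33 ± 0.30 (SE), adjusted p = 0.00433. At 7 dpi against control it was not called (log2 fold change 0.46 ± 0.30, adjusted p = 0.248). Under library totals this value turned to -0.76 and was called as a fall (adjusted p = 0.0302).

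Cxcl8a is the zebrafish counterpart of interleukin 8, a neutrophil attractant. Its level was 0.328 and 4.19 CPM in control pools, 6.89 and 2.49 in 3 dpi pools, 0.457 and 0.332 in 7 dpi pools, 181 and 223 in young pools. The control libraries differed widely from each other and overlapped both injured groups, and the young libraries stood far above every adult one. The rise in young hearts had log2 fold change 6.39 ± 0.74 (SE), adjusted p = 4.19e-05. It held without any 1 of the 8 libraries, at log2 fold changes between 5.51 and 9.24. The change at 3 dpi was 0.96 ± 0.69 (adjusted p = 0.393) and not called, while from 3 to 7 dpi the gene fell with a log2 fold change of -3.55 ± 0.96 (adjusted p = 0.0105). That fall was lost without 3 dpi replicate 1, 7 dpi replicate 1 and 7 dpi replicate 2 (each alone; log2 fold changes -3.79 to -2.66, adjusted p 0.0512 to 0.0683).

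Of the cxcl8b genes, cxcl8b.1 fell from 3 to 7 dpi as cxcl8a did, and cxcl8b.3 rose. The level of cxcl8b.1 was 0.738 and 1.71 CPM in control pools, 7.53 and 1.87 in 3 dpi pools, 1.01 and 0.8302 in 7 dpi pools, 4.61 and 2.77 in young pools, high in 3 dpi replicate 1 and in young hearts. That fall was its sole call (log2 fold change -2.35 ± 0.73, adjusted p = 0.0205), and it was lost without 3 dpi replicate 1, 7 dpi replicate 1 and 7 dpi replicate 2 (each alone; log2 fold changes -2.49 to -1.04, adjusted p 0.0659 to 0.268). Under library totals cxcl8b.1 was also called as higher at 3 dpi (log2 fold change 2.41, adjusted p = 0.0393) and in young hearts (log2 fold change 2.19, adjusted p = 0.021). The level of cxcl8b.3 was 2.87 and 4.13 CPM in control pools, 1.27 and 1.35 in 3 dpi pools, 3.66 and 3.57 in 7 dpi pools, 1.41 and 1.42 in young pools, so both 3 dpi and both young libraries lay below control. It fell in young hearts (log2 fold change -1.31 ± 0.44, adjusted p = 0.0251). The fall was lost without control replicate 2, young replicate 1 and young replicate 2 (each alone, log2 fold changes -1.31 to -1.02). It was also lost under library totals (log2 fold change -0.69, adjusted p = 0.184). Between 3 and 7 dpi it rose (log2 fold change 1.46 ± 0.46, adjusted p = 0.0214), but this was lost without 3 dpi replicate 1, 3 dpi replicate 2, young replicate 1 and young replicate 2 (each alone; log2 fold changes 1.40 to 1.49, adjusted p 0.0535 to 0.0832) and turned to -0.23 under library totals. Cxcl19 had 0 counts in all control and 7 dpi libraries and 4 in the 3 dpi libraries, and at 53 counts over the young libraries was at least 8.89-fold higher there than a floor of 3 counts over the control group. That call (adjusted p = 0.0097) was lost without control replicate 1, control replicate 2 and young replicate 2 (each alone).

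**Figure D3:**
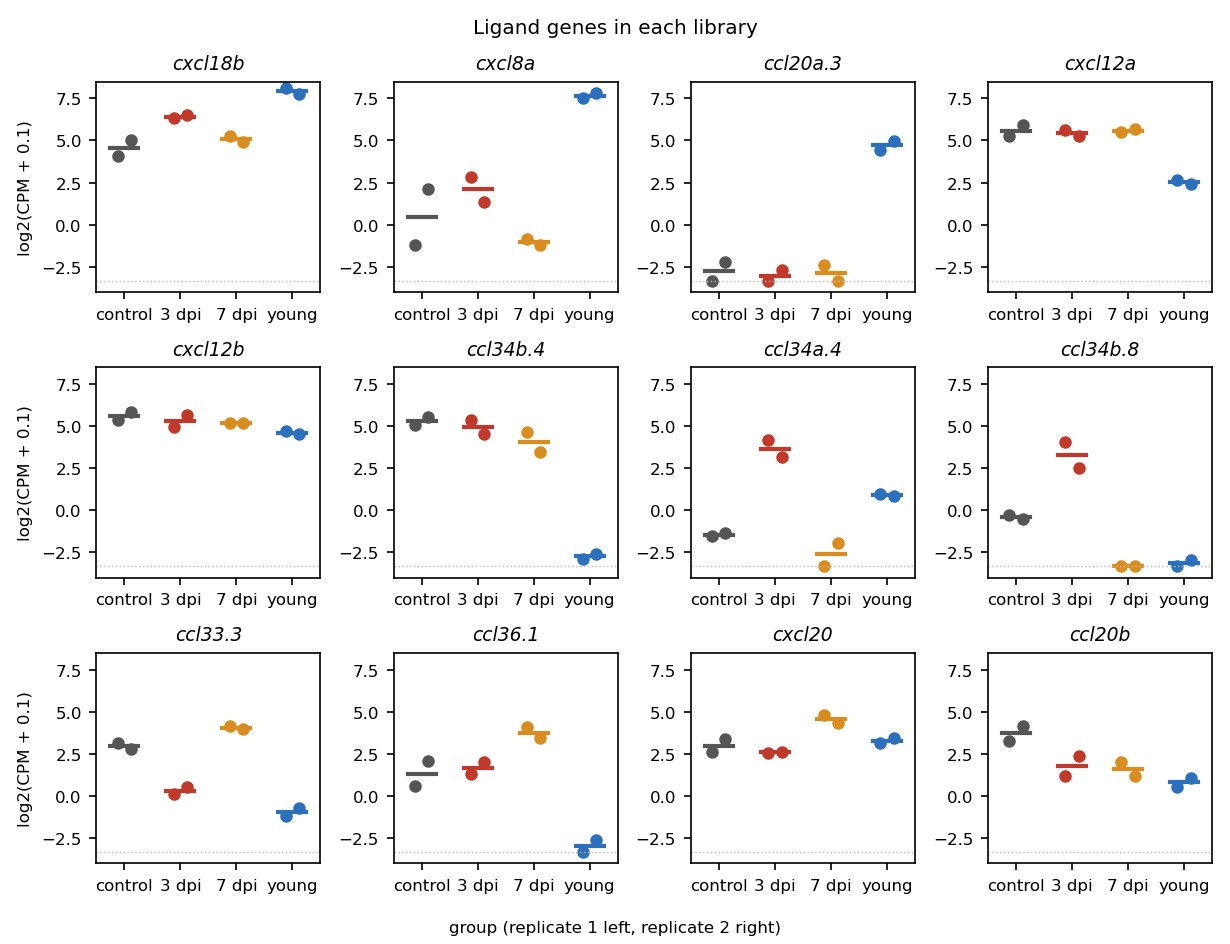
Levels of 12 ligand genes as log2(CPM + 0.1) in each library, with replicate 1 on the left and replicate 2 on the right of each group, a bar at the mean of both, and a dotted line where a gene has 0 counts. The young points of cxcl8a, cxcl18b and ccl20a.3 lie above every adult point, those of cxcl12a and ccl34b.4 below, and ccl33.3 is low at 3 dpi and high at 7 dpi.

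The homeostatic ligands cxcl12a and cxcl12b fell in young hearts and were not called after injury, although with library totals both were called as lower at 7 dpi. Both encode Cxcl12, the ligand of Cxcr4, which guides migrating cells and, in the zebrafish heart, growing coronary vessels. Cxcl12a stood at 38.4 and 59.5 CPM in control pools, 48.2 and 38.2 in 3 dpi pools, 44.3 and 51.3 in 7 dpi pools, 6.21 and 5.29 in young pools. The adult groups overlapped, and both young libraries lay below all of them. The young fall had log2 fold change -3.09 ± 0.27 (SE), adjusted p = 7.91e-06. This fall held without any 1 of the 8 libraries, at log2 fold changes between -3.45 and -2.74. Differences after injury were -0.18 ± 0.25 (adjusted p = 0.679) at 3 dpi and -0.03 ± 0.25 (adjusted p = 0.948) at 7 dpi; from 3 to 7 dpi the value of 0.15 turned to -1.55 under library totals. At 7 dpi against control, library totals gave -1.26 (adjusted p = 0.00218). With that scaling 11041 of all 19330 genes tested fell there.

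For cxcl12b the levels were 41.5 and 58 CPM in control pools, 30.2 and 51.01 in 3 dpi pools, 36.9 and 36.5 in 7 dpi pools, 25.6 and 23.1 in young pools. The young libraries again lay below all adult ones, by a smaller margin than for cxcl12a. Its fall in young hearts was -1.03 ± 0.27 (adjusted p = 0.00733). It was lost without control replicate 2 (log2 fold change -0.77, adjusted p = 0.0657) and without young replicate 2 (log2 fold change -0.95, adjusted p = 0.0593), and also with library totals (log2 fold change -0.41, adjusted p = 0.166). At 7 dpi, by contrast, library totals gave a call for cxcl12b (log2 fold change -1.68, adjusted p = 0.000567).

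The other CXC ligands moved at other times. Cxcl20 was the CXC ligand that rose at 7 dpi: its levels were 5.9 and 10.1 CPM in control pools, 5.67 and 6.13 in 3 dpi pools, 27.7 and 19.8 in 7 dpi pools, 8.92 and 10.6 in young pools, and both 7 dpi libraries lay above the rest. Against control the log2 fold change was 1.55 ± 0.32 (adjusted p = 0.00419), which held without any 1 of the 8 libraries, at log2 fold changes between 1.20 and 2.00. Against 3 dpi it was 2.00 ± 0.33 (adjusted p = 0.000636). Under library totals these were 0.32 and 0.31 and neither passed. Cxcl14 stood at 16.6 and 22.5 CPM in control pools, 7.18 and 12.8 in 3 dpi pools, 16.3 and 22 in 7 dpi pools, 20.3 and 22.99 in young pools, lowest in the 3 dpi libraries. Its difference at 3 dpi was not called (log2 fold change -0.97 ± 0.31, adjusted p = 0.0624); the rise from 3 to 7 dpi was 0.94 ± 0.32 (adjusted p = 0.0292), but was lost without 3 dpi replicate 1 (log2 fold change 0.57, adjusted p = 0.19) and without 7 dpi replicate 2 (log2 fold change 0.69, adjusted p = 0.178) and turned to -0.73 under library totals. Cxcl32b.1 fell in young hearts, where both libraries had 0 counts against 31 over the control group, at least 20.5-fold lower. Cxcl11.1, whose mammalian relatives are interferon-induced ligands of CXCR3, was not called: it had 0 counts in control and 1.39 and 0.104 CPM at 3 dpi, 0 and 0.498 CPM at 7 dpi, while young libraries had 0.297 and 0.645 CPM.

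Of 25 tested CC ligands, 6 rose at 3 dpi, and fish-specific ccl34 genes showed the steepest of these rises. Ccl34a.4 stood at 0.246 and 0.295 CPM in control pools, 17.9 and 8.83 in 3 dpi pools, 0 and 0.166 in 7 dpi pools, 1.86 and 1.74 in young pools. The 3 dpi libraries lay above all others, and the young libraries lay between them and control. The rise had log2 fold change 5.58 ± 0.64 (SE), adjusted p = 0.000633. It held without any 1 of the 8 libraries, at log2 fold changes between 4.99 and 6.00. By 7 dpi, with 2 counts over both libraries, the level was 151-fold (exact 95% counting interval 41.6 to 1251) below that at 3 dpi; in young hearts it rose over control with a log2 fold change of 2.69 ± 0.65 (adjusted p = 0.00465).

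Its neighbour ccl34a.3 had counts of 0 and 1 in control pools, 74 and 29 in 3 dpi pools, 0 and 0 in 7 dpi pools, 0 and 1 in young pools. The 1 control count puts the 3 dpi level at 82.2-fold (exact 95% counting interval 14.4 to 3278) above control. This rise (adjusted p = 0.00846) was lost without control replicate 1, control replicate 2 and 3 dpi replicate 1 (each alone). Against 3 dpi, where 103 counts were found, the 0 counts at 7 dpi place it at least 21.6-fold lower.

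Ccl34b.8 was present in control, higher at 3 dpi and listed at 0 counts in both 7 dpi libraries. Its levels were 0.738 and 0.5901 CPM in control pools, 16.6 and 5.51 in 3 dpi pools, 0 in both in 7 dpi pools, 0 and 0.0322 in young pools. At 3 dpi it rose with a log2 fold change of 4.06 ± 0.69 (adjusted p = 0.00528). The rise was lost without control replicate 2 (log2 fold change 3.90, adjusted p = 0.0604) and without 3 dpi replicate 1 (log2 fold change 3.06, adjusted p = 0.0562). At 7 dpi it was at least 4.99-fold lower than control, where 19 counts were found, and at least 82.5-fold lower than at 3 dpi. The fall against control (adjusted p = 0.0171) was lost without control replicate 1, 7 dpi replicate 1 or 7 dpi replicate 2 (adjusted p 0.0596 to 0.0675). In young hearts 1 count remained, 37.8-fold (exact 95% counting interval 6.002 to 1569) below control.

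The other rises among CC ligands at 3 dpi, of ccl35.1, ccl39.2 and ccl39.5, rested on single libraries. Ccl35.1 stood at 1.07 and 2.12 CPM in control pools, 13.2 and 5.04 in 3 dpi pools, 4.94 and 3.15 in 7 dpi pools, 0.557 and 0.322 in young pools and rose with a log2 fold change of 2.49 ± 0.58 (adjusted p = 0.0176); replicate 1 of 3 dpi was the highest library. This call was lost without control replicate 1, control replicate 2 and 3 dpi replicate 1 (each alone; log2 fold changes 1.64 to 3.09, adjusted p 0.0615 to 0.178). Ccl39.2, at 0.164 and 0.118 CPM in control and 2.32 and 0.623 at 3 dpi, rose with a log2 fold change of 3.34 ± 0.99 (adjusted p = 0.0443). Ccl39.5, at 0.164 and 0.5901 CPM in control and 3.18 and 2.39 at 3 dpi, rose with a log2 fold change of 2.80 ± 0.71 (adjusted p = 0.028). The rise of ccl39.2 was lost without control replicate 1, control replicate 2, 3 dpi replicate 1, young replicate 1 and young replicate 2 (each alone; log2 fold changes 2.12 to 3.51, adjusted p 0.0897 to 0.422). The rise of ccl39.5 was lost without control replicate 1, control replicate 2 and 3 dpi replicate 1 (each alone; log2 fold changes 2.17 to 4.04, adjusted p 0.0647 to 0.151). In young hearts ccl39.5 had 0 counts, at least 7.95-fold lower than control. There ccl35.1 fell with a log2 fold change of -1.88 ± 0.64 (adjusted p = 0.0263). This was lost without control replicate 2 (log2 fold change -1.28) and without young replicate 2 (log2 fold change -1.51). It was also lost under library totals (log2 fold change -1.25, adjusted p = 0.114).

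Ccl33.3 ran the other way, low at 3 dpi and high at 7 dpi. Its levels were 8.93 and 6.79 CPM in control pools, 0.984 and 1.35 in 3 dpi pools, 17.9 and 15.4 in 7 dpi pools, 0.334 and 0.516 in young pools. The 4 groups did not overlap, with 7 dpi highest, then control, then 3 dpi, then young. The fall at 3 dpi had log2 fold change -2.74 ± 0.38 (SE), adjusted p = 0.0018. The fall held without any 1 of the 8 libraries, at log2 fold changes between -2.98 and -2.52. The rise at 7 dpi was 1.08 ± 0.34 (adjusted p = 0.028); it was lost without control replicate 1, control replicate 2, 7 dpi replicate 1 and 7 dpi replicate 2 (each alone; log2 fold changes 0.89 to 1.26, adjusted p 0.0521 to 0.122), and under library totals the value turned to -0.19. Against 3 dpi the 7 dpi level rose with a log2 fold change of 3.82 ± 0.39 (adjusted p = 5.66e-05), which held without any 1 of the 8 libraries, at log2 fold changes between 3.60 and 4.06. In young hearts it fell with a log2 fold change of -4.17 ± 0.41 (adjusted p = 1.52e-05).

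Ccl36.1 was the other CC ligand that rose at 7 dpi. It stood at 1.39 and 4.07 CPM in control pools, 2.37 and 3.95 in 3 dpi pools, 16.8 and 10.7 in 7 dpi pools, 0 and 0.0645 in young pools. Both 7 dpi libraries lay above all others and the young libraries were near 0. Against control it rose with a log2 fold change of 2.30 ± 0.57 (adjusted p = 0.00957). The rise was lost without control replicate 1 (log2 fold change 1.73, adjusted p = 0.0686) and without 7 dpi replicate 1 (log2 fold change 1.92, adjusted p = 0.0552). Against 3 dpi it rose with a log2 fold change of 2.12 ± 0.56 (adjusted p = 0.00942), which was lost without 3 dpi replicate 1 (log2 fold change 1.78, adjusted p = 0.0591) and without 7 dpi replicate 1 (log2 fold change 1.76, adjusted p = 0.0551). Under library totals the values were 1.09 and 0.42, and neither passed.

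Ccl20b fell in each comparison with control. In mammals CCL20 is the ligand of CCR6 on lymphocytes and dendritic cells. Its levels were 9.59 and 17.9 CPM in control pools, 2.2 and 5.19 in 3 dpi pools, 3.93 and 2.16 in 7 dpi pools, 1.37 and 1.999 in young pools, with both control libraries above every other. The log2 fold changes were -1.89 ± 0.51 (adjusted p = 0.0302) at 3 dpi, -2.18 ± 0.52 (adjusted p = 0.00848) at 7 dpi and -3.02 ± 0.53 (adjusted p = 0.00066) in young hearts. The 3 dpi call was lost without control replicate 2 (log2 fold change -1.36, adjusted p = 0.233) and without 3 dpi replicate 1 (log2 fold change -1.40, adjusted p = 0.193), and under library totals it missed the threshold (log2 fold change -1.44, adjusted p = 0.0605). The 7 dpi call was lost without control replicate 2 (log2 fold change -1.67, adjusted p = 0.0631) and without 7 dpi replicate 2 (log2 fold change -1.85, adjusted p = 0.0513).

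Its paralog ccl20a.3 was read mostly in young libraries, with counts of 0 and 2 in control pools, 0 and 1 in 3 dpi pools, 1 and 0 in 7 dpi pools, 590 and 962 in young pools. The adult libraries held at most 2 counts each, and the young level was 390.5-fold (exact 95% counting interval 108 to 3227) that of control (adjusted p = 4.95e-06). That call held without any 1 library.

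Ccl34b.4 was the reverse. It stood at 32.9 and 46.8 CPM in control pools, 40.4 and 22.96 in 3 dpi pools, 24.8 and 11.1 in 7 dpi pools, 0.0372 and 0.0645 in young pools, so that the control level was 791-fold (exact 95% counting interval 270.0 to 3841) that of young hearts, which held 3 counts. That fall (adjusted p = 2.15e-06) held without any 1 library. At 7 dpi it fell with a log2 fold change of -1.15 ± 0.39 (adjusted p = 0.0366), a call that was lost without control replicate 1, control replicate 2 and 7 dpi replicate 2 (each alone; log2 fold changes -1.42 to -0.73, adjusted p 0.0564 to 0.192).

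In young hearts ccl25a rose and its paralog ccl25b fell, and both tested ccl19 genes rose. In mammals CCL25 is the ligand of CCR9 and CCL19 that of CCR7. Ccl25b stood at 10.98 and 23.1 CPM in control pools, 29.01 and 12.1 in 3 dpi pools, 18.9 and 19.6 in 7 dpi pools, 2.86 and 2.93 in young pools; the adult groups overlapped and the young libraries lay below them, a fall of -2.56 ± 0.45 (adjusted p = 0.000698). Ccl25a had 0 counts in both control libraries and 102 over the young ones, at least 17.1-fold higher (adjusted p = 0.0013). Ccl19b likewise had 0 counts in control and 170 in young hearts, at least 28.5-fold higher (adjusted p = 0.00198), and 8 at 3 dpi and 5 at 7 dpi. Ccl19a.1 had 0.492 and 0.5901 CPM in control and 2.56 and 3.48 in young pools, and rose with a log2 fold change of 2.46 ± 0.68 (adjusted p = 0.00943). Ccl44 rose from 0.246 and 0.118 to 1.11 and 0.838 CPM, with a log2 fold change of 2.43 ± 0.76 (adjusted p = 0.0179). These last calls were fragile: that of ccl19a.1 was lost without control replicate 1, control replicate 2 and young replicate 2 (each alone; log2 fold changes 2.23 to 2.60, adjusted p 0.0502 to 0.0765). That of ccl44 was lost without control replicate 1, control replicate 2, young replicate 1 and young replicate 2 (each alone; log2 fold changes 1.96 to 2.90, adjusted p 0.0541 to 0.149).

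The remaining CC ligands called in young hearts fell. Ccl36.1, described above, was 85.5-fold (exact 95% counting interval 22.9 to 717) higher in control than in young hearts, and ccl34b.1, at 1.15 and 1.298 CPM in control pools, 2.37 and 1.77 in 3 dpi pools, 3.02 and 1.66 in 7 dpi pools, 0.0372 and 0.0322 in young pools, was 35.8-fold (exact 95% counting interval 9.21 to 307) higher. After injury ccl34b.1 was not called, and its value of 0.17 from 3 to 7 dpi turned to -1.53 under library totals. Ccl32a.2 (the copy ENSDARG00000095049), at 1.48 and 1.42 CPM in control pools, 4.92 and 2.23 in 3 dpi pools, 0 and 0.332 in 7 dpi pools, 0 in both in young pools, was at least 27.8-fold lower in young hearts. At 7 dpi it fell with a log2 fold change of -3.02 ± 0.98 (adjusted p = 0.0357). This fall was lost without control replicate 1, control replicate 2 and 7 dpi replicate 1 (each alone; log2 fold changes -3.06 to -2.12, adjusted p 0.0849 to 0.11). Ccl34b.9 went from 1.15 and 1.65 CPM in control to 0.183 and 0.332 at 7 dpi (log2 fold change -2.41 ± 0.78, adjusted p = 0.0311) and 0.111 and 0.0322 in young hearts (log2 fold change -4.21 ± 0.81, adjusted p = 0.00119). Its 7 dpi call was lost without control replicate 1, control replicate 2, 3 dpi replicate 1, 7 dpi replicate 1, 7 dpi replicate 2, young replicate 1 and young replicate 2 (each alone; log2 fold changes -2.94 to -2.09, adjusted p 0.0517 to 0.152). Ccl38.6 fell from 1.72 and 2.24 to 0.111 and 0.193 CPM (log2 fold change -3.63 ± 0.69, adjusted p = 0.00107), and ccl38.1 from 1.31 and 1.18 to 0.0743 and 0.226 CPM (log2 fold change -2.97 ± 0.70, adjusted p = 0.00402). The fall of ccl38.1 was lost without young replicate 1 (log2 fold change -2.43, adjusted p = 0.0642). Ccl38a.4 had 0 counts at 7 dpi, at least 3.42-fold lower than control and at least 7.76-fold lower than 3 dpi. The former call (adjusted p = 0.0227) was lost without control replicate 2, 7 dpi replicate 1, 7 dpi replicate 2, young replicate 1 and young replicate 2 (each alone). Ccl38a.5, ccl39.6 and ccl39.7 were tested and not called in any comparison.

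Among receptors, 3 of the 4 genes that rose at 3 dpi were ccr12 genes, a fish CC receptor group. Ccr12b.2 stood at 0.901 and 0.354 CPM in control pools, 33.4 and 19.8 in 3 dpi pools, 0.366 and 0 in 7 dpi pools, 0.372 and 0.226 in young pools. Both 3 dpi libraries lay above every other library, and the other groups overlapped. The rise had log2 fold change 5.45 ± 0.63 (SE), adjusted p = 0.000651. It held without any 1 of the 8 libraries, at log2 fold changes between 4.88 and 6.15. Its level then fell by 7 dpi, with a change from 3 dpi of -7.19 ± 0.76 (adjusted p = 6.33e-05).

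Ccr12a was already present in control, at 9.998 and 3.78 CPM in control pools, 38.4 and 23.8 in 3 dpi pools, 0.731 and 0.8302 in 7 dpi pools, 0.0372 and 0 in young pools. The 3 dpi libraries were highest, control next, then 7 dpi and then young, without overlap. It rose at 3 dpi with a log2 fold change of 2.19 ± 0.46 (adjusted p = 0.0109), which was lost without control replicate 2 (log2 fold change 1.64, adjusted p = 0.064) and without 3 dpi replicate 1 (log2 fold change 1.81, adjusted p = 0.0902). It fell at 7 dpi with a log2 fold change of -3.11 ± 0.57 (adjusted p = 0.00221), which held without any 1 of the 8 libraries, at log2 fold changes between -3.67 and -2.29. The control level was 369.6-fold (exact 95% counting interval 65.5 to 14677) that of young hearts, where 1 count was found. Ccr12b.1, the neighbour of ccr12b.2, stood at 0.0819 and 0.354 CPM in control pools, 3.88 and 1.402 in 3 dpi pools, 0.274 and 0 in 7 dpi pools, 0.149 and 0.161 in young pools and rose at 3 dpi with a log2 fold change of 3.47 ± 0.95 (adjusted p = 0.0325). That call was lost without control replicate 1, control replicate 2, 3 dpi replicate 1, young replicate 1 and young replicate 2 (each alone; log2 fold changes 2.58 to 4.90, adjusted p 0.0624 to 0.278).

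**Figure D4:**
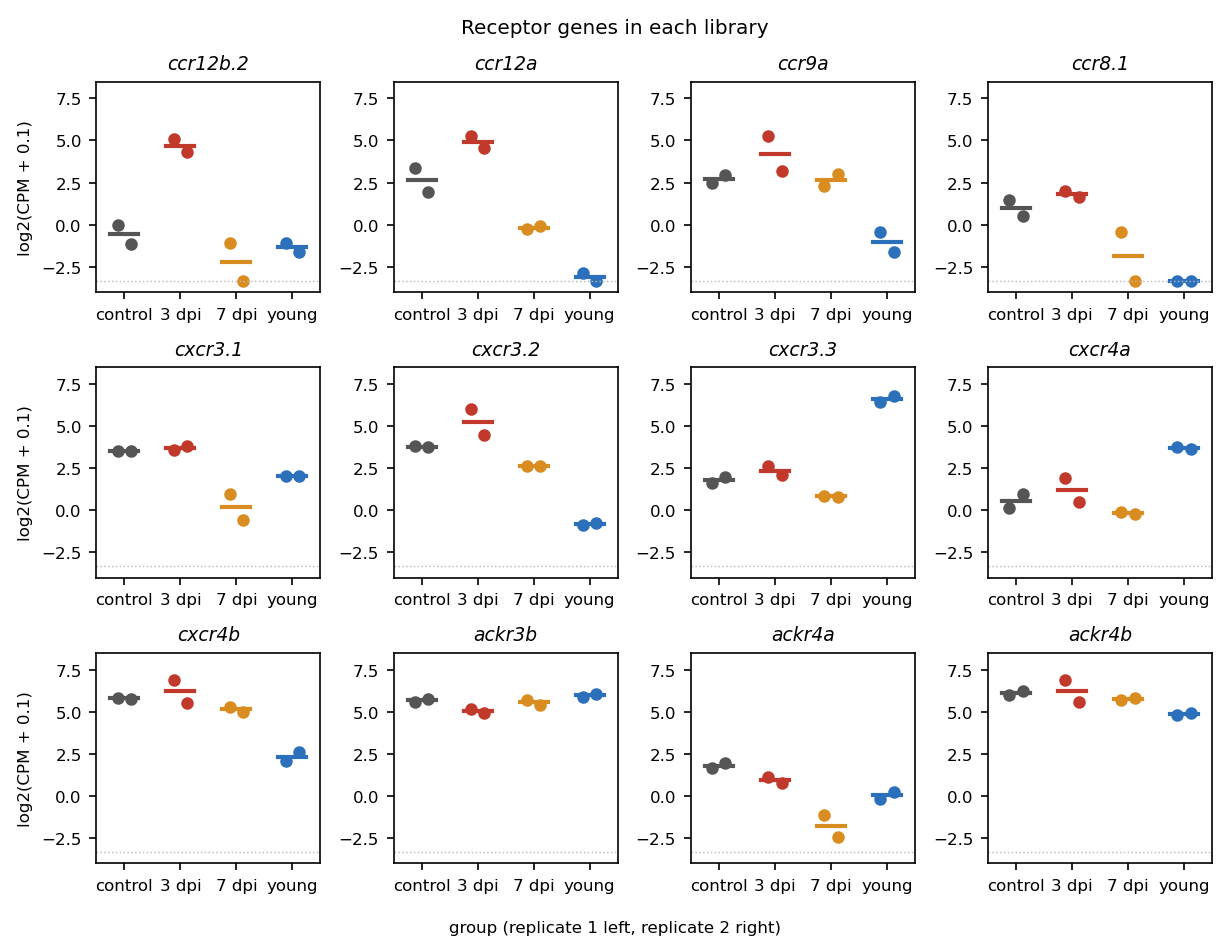
Levels of 12 receptor genes as log2(CPM + 0.1) in each library, with replicate 1 on the left and replicate 2 on the right of each group, a bar at the mean of both, and a dotted line where a gene has 0 counts; cxcr3.1 is ENSDARG00000007358. The 3 dpi points are highest for ccr12b.2 and ccr12a, the young points are highest for cxcr3.3 and cxcr4a and lowest for cxcr3.2 and cxcr4b, and the ackr3b points of all 8 libraries lie between 30.9 and 67.3 CPM.

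The other CC receptors fell at 7 dpi or in young hearts. Ccr9a, whose zebrafish product takes part in seeding the thymus, stood at 5.41 and 7.55 CPM in control pools, 38.6 and 8.88 in 3 dpi pools, 4.84 and 7.804 in 7 dpi pools, 0.632 and 0.226 in young pools. One library, 3 dpi replicate 1, stood far above the rest, and the 3 dpi difference was not called (log2 fold change 1.87 ± 0.61, adjusted p = 0.0626), except under library totals (log2 fold change 2.35, adjusted p = 0.033). The fall in young hearts was -3.93 ± 0.74 (adjusted p = 0.00103). Its fall from 3 to 7 dpi (log2 fold change -1.90 ± 0.61, adjusted p = 0.0239) was lost without 3 dpi replicate 1 (log2 fold change -0.50, adjusted p = 0.491) and without 7 dpi replicate 1 (log2 fold change -1.60, adjusted p = 0.128).

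Ccr11.1 stood at 4.097 and 1.53 CPM in control pools, 2.37 and 1.19 in 3 dpi pools, 0.274 and 0.08302 in 7 dpi pools, 0.0743 and 0.129 in young pools. It fell at 7 dpi with a log2 fold change of -3.94 ± 0.88 (adjusted p = 0.00604) and in young hearts with a log2 fold change of -4.67 ± 0.83 (adjusted p = 0.00074); the former call was lost without control replicate 1 (log2 fold change -3.11, adjusted p = 0.0545). Ccr6a, the relative of the mammalian CCL20 receptor, had 0.738 and 0.944 CPM in control and 0 and 0.166 at 7 dpi, a fall of -3.19 ± 1.04 (adjusted p = 0.032). It was lost without control replicate 1, control replicate 2, 7 dpi replicate 1, young replicate 1 and young replicate 2 (each alone; log2 fold changes -3.38 to -2.33, adjusted p 0.0614 to 0.128). Ccr8.1 had 56 counts over control and 0 over young libraries, at least 37.1-fold lower, and fell from 3 to 7 dpi with a log2 fold change of -3.44 ± 0.96 (adjusted p = 0.0141). Ccr10 fell in young hearts with a log2 fold change of -2.14 ± 0.72 (adjusted p = 0.0247), from 0.574 and 1.42 to 0.223 and 0.226 CPM. That call was lost without control replicate 2, young replicate 1 and young replicate 2 (each alone, log2 fold changes -2.13 to -1.33). It was also lost under library totals (log2 fold change -1.51, adjusted p = 0.0831). The 11 CC receptors summed to 24.9 and 17.5 CPM in control pools, 123 and 60.5 in 3 dpi pools, 7.49 and 9.55 in 7 dpi pools, 2.27 and 1.35 in young pools.

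The cxcr3 genes parted ways between adult and young hearts. In zebrafish, Cxcr3.2 is a signalling receptor used by macrophages, and Cxcr3.3 is an atypical partner that takes up the same Cxcl11 ligands without signalling in the classical way. Cxcr3.2 stood at 14.01 and 13.4 CPM in control pools, 63.98 and 22.5 in 3 dpi pools, 6.03 and 6.14 in 7 dpi pools, 0.446 and 0.484 in young pools. The groups did not overlap, with 3 dpi highest, then control, 7 dpi and young. The gene rose at 3 dpi with a log2 fold change of 1.66 ± 0.40 (adjusted p = 0.0202), which was lost without control replicate 1, control replicate 2 and 3 dpi replicate 1 (each alone; log2 fold changes 0.72 to 1.64, adjusted p 0.0844 to 0.259). It fell at 7 dpi with a log2 fold change of -1.17 ± 0.42 (adjusted p = 0.0475), which was lost without control replicate 1, control replicate 2, 7 dpi replicate 1, 7 dpi replicate 2, young replicate 1 and young replicate 2 (each alone; log2 fold changes -1.22 to -1.16, adjusted p 0.0504 to 0.145). In young hearts it fell with a log2 fold change of -4.86 ± 0.51 (adjusted p = 2.24e-05).

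Cxcr3.3, which lies beside cxcr3.2 in the genome, stood at 2.95 and 3.84 CPM in control pools, 6.02 and 4.16 in 3 dpi pools, 1.74 and 1.66 in 7 dpi pools, 86.7 and 110.0 in young pools. Both young libraries lay far above all adult ones. The rise there had log2 fold change 4.84 ± 0.29 (SE), adjusted p = 1.01e-06. This rise held without any 1 of the 8 libraries, at log2 fold changes between 4.60 and 5.05. At 7 dpi the gene fell with a log2 fold change of -1.01 ± 0.32 (adjusted p = 0.0301), a call that was lost without control replicate 2, 7 dpi replicate 1, 7 dpi replicate 2 and young replicate 2 (each alone; log2 fold changes -1.06 to -0.80, adjusted p 0.0516 to 0.135). Relative to 3 dpi it fell with a log2 fold change of -1.58 ± 0.31 (adjusted p = 0.00186). At 3 dpi against control cxcr3.3 was not called (log2 fold change 0.57 ± 0.28, adjusted p = 0.196), except under library totals (log2 fold change 1.03, adjusted p = 0.0292). Since these genes are similar copies, reads shared by them may be missing from the authors' counts or set to the wrong copy.

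The symbol cxcr3.1 is carried by a pair of gene IDs. ENSDARG00000007358 stood at 11.4 and 11.3 CPM in control pools, 11.9 and 13.9 in 3 dpi pools, 1.83 and 0.581 in 7 dpi pools, 4.01 and 3.93 in young pools. Its 3 dpi libraries lay slightly above those of control, without a call (log2 fold change 0.18 ± 0.37, adjusted p = 0.796). Its level was lowest at 7 dpi, with young between 7 dpi and control. It fell at 7 dpi with a log2 fold change of -3.25 ± 0.45 (adjusted p = 0.000647), which held without any 1 of the 8 libraries, at log2 fold changes between -4.29 and -2.67. In young hearts it fell with a log2 fold change of -1.51 ± 0.39 (adjusted p = 0.00628), a call not made under library totals (log2 fold change -0.91, adjusted p = 0.0556). ENSDARG00000078177 had 0 counts in control and 26 over young libraries, at least 4.36-fold higher. That call (adjusted p = 0.0134) was lost without control replicate 1 or control replicate 2. The gene was tested in 6 of the 8 fits that leave out 1 library.

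The paralogs of the Cxcl12 receptor went in opposite directions in young hearts. Cxcr4b, the more leukocyte-linked copy in zebrafish, stood at 55.8 and 55.1 CPM in control pools, 118 and 46.2 in 3 dpi pools, 38.9 and 31.96 in 7 dpi pools, 4.16 and 5.93 in young pools. The 3 dpi replicates fell on either side of control, and the young libraries were lowest. It fell in young hearts with a log2 fold change of -3.45 ± 0.41 (adjusted p = 4.82e-05), which held without any 1 of the 8 libraries, at log2 fold changes between -3.72 and -3.23. From 3 to 7 dpi it fell with a log2 fold change of -1.22 ± 0.37 (adjusted p = 0.0187). That fall was lost without 3 dpi replicate 1, 7 dpi replicate 1 and 7 dpi replicate 2 (each alone; log2 fold changes -1.36 to -0.40, adjusted p 0.052 to 0.278).

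Cxcr4a, used by endothelial cells in zebrafish vessel growth, stood at 0.983 and 1.89 CPM in control pools, 3.65 and 1.299 in 3 dpi pools, 0.823 and 0.747 in 7 dpi pools, 13.3 and 12.2 in young pools. The young libraries lay above all adult ones, with a rise of 3.12 ± 0.53 (adjusted p = 0.000554). Its fall from 3 to 7 dpi (log2 fold change -1.64 ± 0.59, adjusted p = 0.0374) was lost without 3 dpi replicate 1, 7 dpi replicate 1, 7 dpi replicate 2, young replicate 1 and young replicate 2 (each alone; log2 fold changes -1.71 to -0.74, adjusted p 0.0628 to 0.343). The neutrophil receptor gene cxcr2 was scarce, with counts of 5 and 1 in control pools, 12 and 10 in 3 dpi pools, 0 and 0 in 7 dpi pools, 1 and 0 in young pools, and was called in the fall from 3 to 7 dpi alone (adjusted p = 0.0197), where it was at least 4.62-fold lower. That call was lost without 3 dpi replicate 1, 7 dpi replicate 1 and 7 dpi replicate 2 (each alone).

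XC receptors, which in mammals mark a subset of dendritic cells, fell in young hearts. Xcr1b.3 stood at 1.07 and 2.596 CPM in control pools, 11 and 0.987 in 3 dpi pools, 1.19 and 0.249 in 7 dpi pools, 0.0372 and 0 in young pools, with 3 dpi replicate 1 far above every other library. The control level was 113-fold (exact 95% counting interval 19.5 to 4552) that of young hearts. From 3 to 7 dpi the gene fell with a log2 fold change of -3.07 ± 1.09 (adjusted p = 0.0361), which was lost without control replicate 1, control replicate 2, 3 dpi replicate 1 and 7 dpi replicate 2 (each alone; log2 fold changes -3.08 to -0.49, adjusted p 0.0501 to 0.761). Xcr1a.1 had 15 counts over control and 0 over young libraries, at least 9.94-fold lower.

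Of the atypical receptors, ackr3b had no call, ackr4b was called in young hearts alone, and ackr4a fell in 3 comparisons. Ackr3b removes Cxcl12 from tissue in zebrafish. It stood at 48.2 and 55.2 CPM in control pools, 35.5 and 30.9 in 3 dpi pools, 52.8 and 43 in 7 dpi pools, 59.5 and 67.3 in young pools and was not called in any comparison, with log2 fold changes of -0.64 ± 0.21 (adjusted p = 0.0616) at 3 dpi, -0.11 ± 0.21 (adjusted p = 0.709) at 7 dpi and 0.29 ± 0.20 (adjusted p = 0.233) in young hearts. Its difference from 3 to 7 dpi, 0.53 ± 0.21 (adjusted p = 0.0531), turned to -1.17 under library totals. With that scaling ackr3b was called as lower at 7 dpi against control (log2 fold change -1.36, adjusted p = 0.000572) and as higher in young hearts (log2 fold change 0.91, adjusted p = 0.00359).

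Ackr4b, whose mammalian relative scavenges CCL19, CCL21 and CCL25, stood at 64.6 and 75.8 CPM in control pools, 116 and 48.1 in 3 dpi pools, 52.7 and 57.3 in 7 dpi pools, 27.7 and 30.8 in young pools. The 3 dpi replicates again lay on either side of control. It fell in young hearts with a log2 fold change of -1.26 ± 0.34 (adjusted p = 0.00834); under library totals this was -0.65 and not called (adjusted p = 0.149), whereas the 7 dpi difference was then called (log2 fold change -1.60, adjusted p = 0.00533). Ackr4a stood at 3.03 and 3.84 CPM in control pools, 2.08 and 1.61 in 3 dpi pools, 0.366 and 0.08302 in 7 dpi pools, 0.7804 and 1.096 in young pools. It fell at 7 dpi with a log2 fold change of -3.93 ± 0.71 (adjusted p = 0.00211), which held without any 1 of the 8 libraries, at log2 fold changes between -5.29 and -3.25. It also fell from 3 to 7 dpi with a log2 fold change of -3.03 ± 0.72 (adjusted p = 0.00547). In young hearts it fell with a log2 fold change of -1.86 ± 0.56 (adjusted p = 0.0139). The young call was lost without control replicate 2, young replicate 1 and young replicate 2 (each alone, log2 fold changes -2.12 to -1.65). Under library totals the young difference was -1.25 and not called (adjusted p = 0.0662).

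Set side by side, the genes of the Cxcl12 axis (cxcl12a, cxcl12b, cxcr4a, cxcr4b and ackr3b) had no call at 3 or 7 dpi against control under TMM scaling. Under library totals all 5 were called as lower at 7 dpi, with log2 fold changes of -1.91 for cxcr4b (adjusted p = 0.00367) and -2.10 for cxcr4a (adjusted p = 0.0134) beside those of the other 3 given above. With that scaling 11041 of all 19330 genes tested also fell at 7 dpi, and the median log2 fold change of all genes was -1.37. In young hearts cxcl12a, cxcl12b and cxcr4b fell and cxcr4a rose. For the Cxcl8 axis, young hearts had high cxcl8a and cxcl18b beside 0.0372 and 0 CPM of cxcr2. Its fellow receptor cxcr1, named through the table of gene names and thus outside the rule, stood at 0.4097 and 0.05901 CPM in control pools, 1.51 and 2.23 in 3 dpi pools, 0 and 0.08302 in 7 dpi pools, 0.5203 and 0.161 in young pools and rose at 3 dpi with a log2 fold change of 3.08 ± 0.94 (adjusted p = 0.0499). Ccr2, the monocyte receptor and likewise outside the rule, stood at 1.48 and 1.18 CPM in control pools, 9.496 and 7.32 in 3 dpi pools, 0.274 and 0.498 in 7 dpi pools, 0.0372 and 0.0645 in young pools. It rose at 3 dpi with a log2 fold change of 2.66 ± 0.48 (adjusted p = 0.00536), then fell at 7 dpi with a log2 fold change of -1.74 ± 0.58 (adjusted p = 0.0361) and in young hearts with a log2 fold change of -4.51 ± 0.67 (adjusted p = 0.000221). Cxcl11.3 and cxcl11.4 were the other family genes named that way; cxcl11.3 stood at 0.901 and 1.53 CPM in control pools, 6.31 and 1.56 in 3 dpi pools, 1.19 and 0.498 in 7 dpi pools, 0.149 and 0.2901 in young pools and fell in young hearts (log2 fold change -2.44 ± 0.84, adjusted p = 0.0273), and cxcl11.4 was not tested, with counts of 1 and 1 in control pools, 81 and 7 in 3 dpi pools, 4 and 0 in 7 dpi pools, 1 and 1 in young pools. These 4 genes were chosen after their values were seen, and fits without single libraries or under other scalings are not given for them.

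Genes that act downstream of chemokine receptors were counted in the same comparisons. Of 39 tested genes of a list of chemokine receptor signalling (G protein subunits, arrestins, Rac activators and leukocyte integrins), 14 rose and 0 fell at 3 dpi, 3 rose and 14 fell at 7 dpi, 8 rose and 16 fell in young hearts, and 1 rose and 22 fell from 3 to 7 dpi. Their median log2 fold changes were 0.47, -0.56, -0.39 and -1.36, beside 0.00, -0.13, 0.14 and -0.21 over all genes. Of all genes tested, 9.05% rose and 6.55% fell at 3 dpi, and 18.7% rose and 20% fell at 7 dpi. In young hearts 32.6% of all genes rose and 27.6% fell, and from 3 to 7 dpi 22.8% rose and 28.1% fell. The counts of the lists below are to be read beside these same shares. Itgb2, the beta chain of leukocyte integrins, stood at 82.6 and 55.9 CPM in control pools, 257 and 128 in 3 dpi pools, 19.7 and 13.8 in 7 dpi pools, 0.595 and 0.935 in young pools; it rose at 3 dpi (log2 fold change 1.48 ± 0.35, adjusted p = 0.0177) and fell at 7 dpi (log2 fold change -2.05 ± 0.36, adjusted p = 0.00186) and in young hearts (log2 fold change -6.47 ± 0.46, adjusted p = 2.25e-06). Coro1a, an actin regulator of leukocytes, stood at 77.4 and 62.2 CPM in control pools, 355 and 167 in 3 dpi pools, 58.5 and 48.6 in 7 dpi pools, 3.01 and 2.58 in young pools; it rose at 3 dpi (log2 fold change 1.91 ± 0.33, adjusted p = 0.00449) and fell in young hearts (log2 fold change -4.64 ± 0.38, adjusted p = 4.81e-06). Wasb, a Wiskott-Aldrich syndrome protein gene, was called in the young fall alone (log2 fold change -6.21 ± 0.44, adjusted p = 2.23e-06), from 19.7 and 17.3 to 0.334 and 0.161 CPM.

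Inflammatory regulators were high in the same young libraries as cxcl8a and cxcl18b. Of 26 tested, 19 rose and 3 fell in young hearts, 9 rose and 1 fell at 3 dpi, 5 rose and 4 fell at 7 dpi, and 1 rose and 17 fell from 3 to 7 dpi. The cytokine gene il1b stood at 0.901 and 1.003 CPM in control pools, 5.15 and 2.29 in 3 dpi pools, 0.183 and 0.415 in 7 dpi pools, 86.5 and 74.95 in young pools, lowest at 7 dpi and far higher in young than in any adult library. It rose at 3 dpi with a log2 fold change of 1.94 ± 0.42 (adjusted p = 0.0134) and in young hearts with a log2 fold change of 6.39 ± 0.43 (adjusted p = 1.73e-06). The cytokine gene tnfb stood at 0.574 and 1.003 CPM in control pools, 11.6 and 7.27 in 3 dpi pools, 1.74 and 2.57 in 7 dpi pools, 93.4 and 101 in young pools, with rises of 3.53 ± 0.37 (adjusted p = 0.000364) at 3 dpi, 1.41 ± 0.42 (adjusted p = 0.0221) at 7 dpi and 6.89 ± 0.38 (adjusted p = 6.89e-07) in young hearts. Nfkb2, a subunit of the NF-kB transcription factor, rose in young hearts with a log2 fold change of 2.88 ± 0.22 (adjusted p = 3.27e-06).

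A list of other leukocyte attractants, the enzymes that make them and their receptors was counted beside the family. Of 9 tested, 6 rose and 0 fell at 3 dpi, 1 rose and 3 fell at 7 dpi, 3 rose and 6 fell in young hearts, and 0 rose and 8 fell from 3 to 7 dpi. C5ar1, the receptor of complement fragment C5a, stood at 1.803 and 1.003 CPM in control pools, 26.8 and 16.5 in 3 dpi pools, 0.548 and 0.166 in 7 dpi pools, 0.111 and 0.226 in young pools; it rose at 3 dpi (log2 fold change 3.97 ± 0.50, adjusted p = 0.000999) and fell at 7 dpi (log2 fold change -1.96 ± 0.66, adjusted p = 0.037). The leukotriene B4 receptor gene ltb4r rose at 3 dpi (log2 fold change 1.15 ± 0.34, adjusted p = 0.045) and fell in young hearts (log2 fold change -3.92 ± 0.40, adjusted p = 1.88e-05). The sphingosine receptor gene s1pr4 fell in young hearts (log2 fold change -6.89 ± 0.55, adjusted p = 4.43e-06).

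Leukocyte markers are given for the same libraries. The marker sums here and below use TMM scaling and were not made under library totals, so the 7 dpi sums are relative to that choice. The 14 macrophage markers summed to 679 and 912 CPM in control pools, 1922 and 1068 in 3 dpi pools, 882 and 827 in 7 dpi pools, 5.50 and 5.22 in young pools. Of these, 11 rose and 0 fell at 3 dpi, 1 rose and 4 fell at 7 dpi, and 0 rose and 13 fell in young hearts. The macrophage gene mpeg1.1 stood at 43.2 and 52.6 CPM in control pools, 175 and 83.1 in 3 dpi pools, 28.1 and 19.01 in 7 dpi pools, 0.929 and 0.5803 in young pools, so it was near 0 in young hearts. Replicate 1 of 3 dpi was thus the highest library for these markers, as it was for cxcr4b, ccr9a, xcr1b.3 and cxcr3.2, and their part in the receptor results was not tested.

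The 9 neutrophil markers found summed to 810 and 607 CPM in control pools, 642 and 631 in 3 dpi pools, 468 and 436 in 7 dpi pools, 634 and 752 in young pools, with 3 rising and 2 falling at 3 dpi, 0 against 8 at 7 dpi, and 3 against 5 in young hearts. The members differed among themselves: mmp9, a matrix protease that other cells also make, stood at 6.47 and 5.31 CPM in control pools, 31.4 and 52.5 in 3 dpi pools, 0.914 and 2.41 in 7 dpi pools, 369.8 and 442 in young pools, whereas the granule gene lyz stood at 205 and 99.01 CPM in control pools, 32.3 and 33.4 in 3 dpi pools, 36.2 and 17.4 in 7 dpi pools, 0.855 and 1.77 in young pools. In young hearts mmp9 alone gave 369.8 and 442 CPM of the summed 634 and 752, so the sum there is mostly that of mmp9. The median log2 fold change of the 9 markers in young hearts was -1.46, with 3 rising and 5 falling. The 12 lymphocyte markers found summed to 57.9 and 44.8 CPM in control pools, 54.4 and 37.0 in 3 dpi pools, 21.8 and 26.4 in 7 dpi pools, 2.75 and 2.87 in young pools; of 10 tested, 0 rose in any comparison with control and 5 fell at 7 dpi and 9 in young hearts. The 7 endothelial markers summed to 1012 and 911 CPM in control pools, 899 and 919 in 3 dpi pools, 778 and 744 in 7 dpi pools, 545 and 623 in young pools, and of these 1 fell at 3 dpi, 3 rose and 3 fell at 7 dpi, and 1 rose and 5 fell in young hearts. The 5 epicardial markers summed to 229 and 282 CPM in control pools, 627 and 572 in 3 dpi pools, 332 and 256 in 7 dpi pools, 119 and 125 in young pools, and of these 1 rose at 3 dpi, 2 fell at 7 dpi and 4 fell in young hearts. Their median log2 fold change at 3 dpi was 0.16, so the larger sum there was not shared evenly by the 5 markers. The part of all these cells in the chemokine results was not tested.

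Many members lie beside each other in the genome. By the order of protein-coding genes in RefSeq's annotation of GRCz12tu, in which 66 of the 78 symbols matched, 33 members fell into 13 runs of members at most 5 genes apart. The longest run held 5 genes: ccl34b.1, ccl34b.4, ccl34b.8, ccl34b.9 and cxcl32b.1. All 5 fell in young hearts, where 27.6% of all genes and 13 of 25 tested CC ligands fell. At 3 dpi ccl34b.8 alone rose, a call lost without control replicate 2 and without 3 dpi replicate 1. Neighbours also parted, as cxcr3.2 and cxcr3.3 did in young hearts and cxcl8b.1 and cxcl8b.3 did from 3 to 7 dpi, the latter not under library totals. Where such copies are near-identical, reads shared by them may be missing from the authors' counts or set to the wrong copy.

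The 22 members not tested had at most 21 counts in any library. They were 16 ligands and 6 receptors, and 3 of them, both ccl39.3 IDs and ccl39.4, had 0 counts in every library. Ccr7, the homing receptor of lymphocytes and dendritic cells in mammals, had counts of 4 and 1 in control pools, 3 and 4 in 3 dpi pools, 0 and 0 in 7 dpi pools, 2 and 4 in young pools. Ackr3a had counts of 3 and 5 in control pools, 4 and 5 in 3 dpi pools, 0 and 0 in 7 dpi pools, 6 and 5 in young pools, and xcr1b.1 of 2 and 3 in control pools, 19 and 5 in 3 dpi pools, 0 and 0 in 7 dpi pools, 0 and 1 in young pools, with replicate 1 of 3 dpi the highest. Of the 56 tested members, the group with the highest mean level was 3 dpi for 26, young for 13, control for 9 and 7 dpi for 8. For the 20 receptors these numbers were 12, 4, 4 and 0. The same count was not made over all genes tested, so no background stands beside these numbers and they describe the members alone.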

How the data were processed

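Total RNA of pooled zebrafish hearts was extracted with TRIzol and sequenced on an Illumina HiSeq, per the labels' protocols. The authors deposited raw read counts per gene for all 8 libraries, made with TopHat2 2.0.13 and HTSeq on GRCz10, per the submitters' processing notes (annotation release and strand setting: not given in the sources used here). For RPM, reads scaled to the library total, the authors deposited a table of the 6 adult libraries; each value matched a count divided by its library total for 100% of 23350 genes (relative tolerance 1e-04), giving whole reads for 100% of values, with control replicates numbered the other way round; the text follows the count table. Counts recovered from RPM served as an alternative, calling 11 members at 3 dpi, 14 at 7 dpi and 28 from 3 to 7 dpi (all genes: 2195, 6128 and 8258).

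Symbols came from the RPM table (23350 genes) or a table of gene names (4026). Counts entered edgeR 4.0.16 (R 4.3.3) as 1 fit of 8 libraries with filterByExpr (19330 genes), TMM scaling and quasi-likelihood F tests, adjusted by Benjamini-Hochberg at 0.05. The fit left 4 residual degrees of freedom a gene. The tests add prior degrees of freedom to these, from the spread estimated over all genes. Standard errors were back-calculated from the F statistic. The smallest p that exact permutation of 4 libraries allows is 0.333. The procedure was tested on simulated data. A group at 0 counts was set to a floor of 3 counts over the group; floors and 95% intervals cover counting error only. Alternatives used other scalings, filters, libraries, a replicate block and DESeq2 1.42.0.

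The members, the 9 gene lists and the tests were chosen with earlier results of these data known. Members named are those called in at least 1 comparison or with a group mean of 5 CPM or more (52 genes); from each list, the 3 genes with the smallest p may be named. Mpeg1.1, mmp9, lyz and the 4 family genes outside the rule were taken up as markers or after their values were seen. Values under the alternatives are not given for these genes or for those named from the lists.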

Additional observations from a re-analysis of the deposited data

Results flagged for a closer look

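Members called in opposite directions at 3 dpi and 7 dpi against control, and called between 7 and 3 dpi, were ccl33.3, ccl34b.8, ccr12a and cxcr3.2. These comparisons share control libraries. For each of the genes, a call against control was lost when a single library was left out, as given above. For ccl33.3 the 7 dpi value against control also turned to -0.19 under library totals. Since the genes were chosen by their call between 7 and 3 dpi, the values of that difference are given as a description, not as a further test.

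Ccl33.3 fell at 3 dpi and rose at 7 dpi, and differed by 3.82 on the log2 scale, with both 7 dpi libraries above both 3 dpi libraries. Ccr12a rose and then fell, and differed by -5.30, with both 7 dpi libraries below. Cxcr3.2 rose and then fell, and differed by -2.83, again with both 7 dpi libraries below. Ccl34b.8 had 0 counts at 7 dpi, so its fitted difference of -10.66 depends on the prior count and is no bound; it was at least 82.5-fold lower than at 3 dpi.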

How the results depend on the processing

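Of 3503 values of named genes under the alternatives, 3235 kept direction and side of the threshold, 179 lost and 81 gained a call, and 8 reversed. All 8 reversals came with library totals: at 7 dpi against control ccl33.3 (-0.19), cxcl18b (-0.76) and cxcl8b.3 (-1.19), and from 3 to 7 dpi ccl34b.1 (-1.53), cxcl12a (-1.55), cxcl14 (-0.73), cxcl8b.3 (-0.23) and ackr3b (-1.17). Leaving out 1 library gave 4 to 20 called members at 3 dpi, 8 to 18 at 7 dpi, 32 to 43 in young hearts and 16 to 32 from 3 to 7 dpi; for all genes 985 to 3287, 4093 to 7750, 8296 to 12204 and 7911 to 9840. Library totals gave 29 members at 7 dpi against 16, and 11770 of all genes against 7486. With the 2 compared groups alone, 1823 genes were called at 3 dpi against 3015. Other alternatives kept these counts within 1.5 times. Replicate numbers did not pair the libraries (correlations of deviations from -0.14 to 0.07), and with the replicate block 12, 13, 40 and 28 members were called, and 2650, 6854, 10989 and 9183 of all genes. Excluding the 7 dpi group, chosen after seeing the data, left 13 calls at 3 dpi and 41 in young hearts. With 2 libraries a group, a miss of the threshold does not show that levels were alike.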
